A study of Mus musculus with 10 samples.

Results

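The complement genes described here are 9 protein-coding mouse genes, the components C1ra, Masp1, C2, C4b, Cfb and C3 and the regulators Serping1, Cd55 and Cd59a. They were taken by exact symbol from the 48476 genes of the expression table, and all 9 were found. mRNA had been sequenced from mouse embryonic fibroblasts (MEFs) of E13.5 embryos of the labelled strain CBA/CaJ X C57BL/6J, carrying an Oct4-GFP reporter, while they were reprogrammed with retroviral Oct4, Klf4 and Sox2 (OKS) in iCD1, a defined medium for making induced pluripotent stem cells. One arm received a retrovirus for the forkhead factor FoxO6 beside OKS (OKS + FoxO6), and the control arm received one for the red fluorescent protein DsRed in its place (OKS + DsRed). Each arm was sampled at days 0, 1, 3, 5 and 7, and each day gave a single library per arm, 10 in all. No library analysed here is labelled as MEFs without OKS, and whether the 5 days of an arm came from 1 infected culture is not given in the sources used here.

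Complement is a cascade of plasma and cell surface proteins that tags targets for removal and can open pores in membranes. The C1 and MASP proteases cleave C4 and C2, factor B is the protease of the alternative route, and all routes meet at the cleavage of C3. C1 inhibitor, encoded by Serping1, blocks the first proteases, whereas CD55 and CD59 sit on the membrane and protect a cell from complement formed on it. The liver makes most plasma complement, but fibroblasts are known to secrete several components and to make more of them when exposed to inflammatory cytokines.

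In these MEFs members of both kinds differed between the arms. C3, Cfb and Masp1 were lower in OKS + FoxO6 over the 5 days, whereas Cd55 and Cd59a were higher, by the test given below, and C1ra, C2, C4b and Serping1 did not pass it. C3 passed the filter on low counts through OKS + DsRed libraries alone, so its call is not independent of that filter. Most members were at their highest level at day 5 in OKS + DsRed, and for the components and Serping1 the widest gaps between the arms on the log2(TPM + 1) scale fell on days 3 and 5. The calls lay close to the threshold, and none of them held in every alternative setting.

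Promoter windows were available for 4 members, and they are shown because they put side by side the first protease C1ra, the central component C3, which was lower in OKS + FoxO6, and the 2 membrane regulators, which were higher. The sequences are from RefSeq on GRCm38.p6, set on the RefSeq start of each gene and printed 5′ to 3′ on the strand of the gene, with matched motifs in capitals. The motifs searched were the STAT site TTCNNNGAA, the interferon response element (GAAA, any pair of bases, GAAA), the NF-kB site (GGGA, any base, TTTCC), the C/EBP site TTGCNNAA, the forkhead site TGTTTAC and the GC box GGGCGG, each on both strands, and TATAAA on the strand of the gene.
C1ra, chr6:124512371-124512670, strand plus: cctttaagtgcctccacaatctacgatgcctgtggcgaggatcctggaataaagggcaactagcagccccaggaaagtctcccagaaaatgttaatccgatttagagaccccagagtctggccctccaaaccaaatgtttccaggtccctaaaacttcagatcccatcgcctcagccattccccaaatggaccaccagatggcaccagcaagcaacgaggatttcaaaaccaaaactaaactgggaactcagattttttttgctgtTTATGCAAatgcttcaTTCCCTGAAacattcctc
C3, chr17:57228087-57228386, strand minus: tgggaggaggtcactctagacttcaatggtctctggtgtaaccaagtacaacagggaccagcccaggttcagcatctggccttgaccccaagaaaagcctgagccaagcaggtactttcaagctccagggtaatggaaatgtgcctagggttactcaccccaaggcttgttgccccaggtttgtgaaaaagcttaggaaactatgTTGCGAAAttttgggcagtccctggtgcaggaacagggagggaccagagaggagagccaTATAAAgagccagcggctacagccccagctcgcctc
Cd55, chr1:130462695-130462994, strand minus: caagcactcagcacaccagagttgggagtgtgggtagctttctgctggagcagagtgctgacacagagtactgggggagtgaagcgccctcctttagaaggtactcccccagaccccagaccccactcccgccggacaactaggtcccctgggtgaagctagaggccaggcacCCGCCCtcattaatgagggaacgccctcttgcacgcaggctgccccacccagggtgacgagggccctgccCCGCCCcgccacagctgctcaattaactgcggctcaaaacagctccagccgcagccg
Cd59a, chr2:104095551-104095850, strand plus: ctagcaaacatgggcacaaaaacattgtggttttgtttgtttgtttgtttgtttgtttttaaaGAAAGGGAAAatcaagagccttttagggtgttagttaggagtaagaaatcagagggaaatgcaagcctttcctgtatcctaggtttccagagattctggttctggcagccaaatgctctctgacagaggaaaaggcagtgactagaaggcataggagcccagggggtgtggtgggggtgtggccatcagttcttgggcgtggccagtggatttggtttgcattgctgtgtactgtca

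Positions count the RefSeq start as 1 and the base before it as -1. The C1ra window held a C/EBP match at position 17 and a STAT match at position 33. For C1ra the RefSeq start lies downstream of the gene start in the GENCODE annotation, at 124512405. By that annotation most of the C1ra window, both matches included, lies inside the gene. For C3, Cd55 and Cd59a the RefSeq and GENCODE starts agree. The C3 window held a C/EBP match at position -45 and TATAAA at position 15. The Cd55 window held 2 GC boxes, at positions -77 and -7, and had the highest GC content of the 4 at 63.3%, against a median of 52.7% over all 32851 windows of this length. The Cd59a window had a GC content of 45.7% and an interferon response element match at position -187. Among all windows the STAT motif occurred in 8.3%, the interferon response element in 3.44%, the C/EBP motif in 10.8%, the GC box in 35.66% and TATAAA in 8.32%. The NF-kB motif, in 0.41% of all windows, and the forkhead motif, in 3.65%, had no match among the 4. A match describes letters and not a bound site, and the windows share no motif of this set except the C/EBP motif of C1ra and C3.

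Library depth ran from 1208379 to 2225750 expected counts (read counts estimated by RSEM), with a median of 1601151, so the rarer members rest on few reads. Levels are given in TPM (transcript abundance scaled per length and per library), and numbers of reads are expected counts. Foxo6, which checks the labels, was listed at 0.61 to 2.29 TPM in the 5 OKS + DsRed libraries and at 762 to 1356 TPM in the 5 OKS + FoxO6 libraries, day 0 included. All 12 fibroblast markers were expressed, and their summed TPM fell from 9199 at day 0 to 2981 at day 5 in the OKS + DsRed libraries, where it was 3053 at day 7, and from 8728 at day 0 to 3300 at day 7 in OKS + FoxO6. By the test given below 2 of the 12 were higher in OKS + FoxO6, against 6.69% of all genes tested, and 1 was lower, against 6.92%. The log2 shifts were 1.16 for Dcn, 0.96 for Pdgfra and -0.63 for Col3a1. Summed macrophage markers were at 20.6, 60.9, 61.3, 26.7 and 24.5 TPM at days 0, 1, 3, 5 and 7 in OKS + DsRed and at 31, 27.1, 26.5, 25.9 and 21.2 TPM in OKS + FoxO6. Cd68 alone was at 52 and 52.6 TPM at days 1 and 3 in OKS + DsRed, while Ptprc, Adgre1 and Csf1r had 0 to 3 reads in each library and Cx3cr1 had none. Mrc1 had 2 to 7 reads per library in OKS + DsRed and 0 to 3 in OKS + FoxO6. Lyz2 had 1 to 5 and 1 to 6 reads in these arms, and the remaining macrophage markers had at most 3 in any library. Summed hepatocyte markers ranged from 2.19 at day 0 to 80.3 TPM at day 5 in OKS + DsRed and from 0.64 at day 0 to 154 TPM at day 7 in OKS + FoxO6, while 5 and 4 of the 9 measured markers, respectively, had no read in any library of the arm. Summed endothelial markers ranged from 38.4 to 60.2 TPM in OKS + DsRed and from 51.4 to 144 TPM in OKS + FoxO6, where Kdr and Tek, 2 of the 3 markers tested, were higher (against 6.69% of all genes tested) while Pecam1 at day 7 was lower, at 0.76 against 5.73 TPM, and the part of any of these cell types in the results below was not tested.

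By mean TPM over the 10 libraries the order of the members was Cd55 at 141, Serping1 at 132, Cd59a at 38.8, C1ra at 28.8, Masp1 at 10.4, Cfb at 8.97, C2 at 3.6, C3 at 1.89 and C4b at 1.07. The regulators were thus the 3 most abundant members. The ranges over libraries overlapped between all neighbours in that order, from Cd55 at 82 to 191 TPM and Serping1 at 25.5 to 393 TPM down to C3 at 0 to 7.1 TPM and C4b at 0 to 5.22 TPM. In these bulk libraries, fewer cells that express a gene and less of its RNA per cell cannot be told apart.

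**Figure D1:**
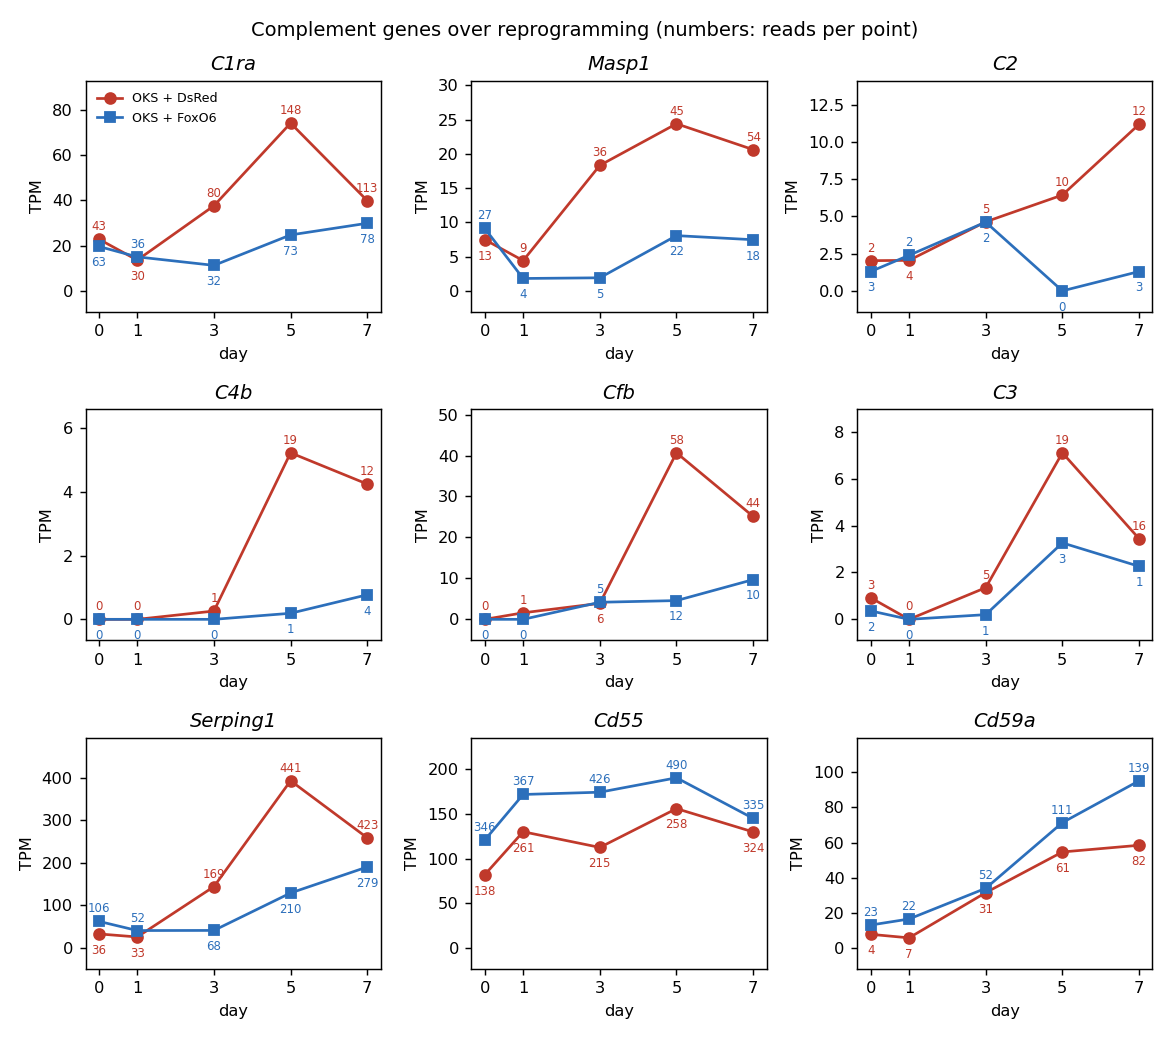
TPM (linear axis, from its own range in each panel) of the 9 complement genes against day of reprogramming, with red circles for OKS + DsRed, blue squares for OKS + FoxO6, 1 library per point and no error bars, and the expected count of each point beside it. The red curves of the components and Serping1 stood above the blue ones at day 5, whereas the blue curves of Cd55 and Cd59a stood above the red ones on all 5 days.

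C1ra (ENSMUSG00000055172, GRCm38 chr6:124512405-124523443, plus strand) encodes C1r, the protease that activates C1s within the C1 complex. Its level in OKS + DsRed was 22.8, 13.6, 37.5, 74 and 39.8 TPM at days 0, 1, 3, 5 and 7. In OKS + FoxO6 it was 19.6, 15, 11.2, 24.7 and 29.8 TPM on the same days. The arms were close at days 0 and 1 and apart at days 3 and 5, and the ranges of the arms overlapped. As CPM (counts scaled to the library total), C1ra was 3.39-fold higher in OKS + DsRed at day 3 (95% exact interval 2.22 to 5.28) and 3.07-fold higher at day 5 (2.31 to 4.13), whereas the day 7 ratio of 1.21 had an interval that spanned 1 (0.899 to 1.64). These intervals, here and below, cover counting error only, since there is 1 library per arm and day. C1ra shares 48.02% of its 50-base words with its neighbour C1rb, which had 0 reads in every library.

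Masp1 (ENSMUSG00000022887, chr16:23449417-23520815, minus strand) encodes a protease that circulates with mannose-binding lectins and ficolins. It was at 7.48, 4.42, 18.3, 24.4 and 20.6 TPM in OKS + DsRed and at 9.11, 1.81, 1.91, 8.07 and 7.47 TPM in OKS + FoxO6 at days 0, 1, 3, 5 and 7. The OKS + DsRed libraries of days 3, 5 and 7 stood above every OKS + FoxO6 library. The gap was widest at day 3, with 36 against 5 reads and a ratio of 9.76 (3.82 to 31.9), and it was 3.1-fold at day 5 (1.83 to 5.43) and 2.51-fold at day 7 (1.45 to 4.54). In OKS + FoxO6 the day 0 level of Masp1 was its highest.

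C2, C4b and Cfb lie within the class III region of the major histocompatibility complex on chromosome 17, all on the minus strand, and C3 lies elsewhere on that chromosome. C2 (ENSMUSG00000024371, chr17:34862604-34898265) encodes the protease subunit of the classical and lectin C3 convertase. It was at 2.03, 2.05, 4.64, 6.44 and 11.2 TPM in OKS + DsRed, from 2 to 12 reads, and at 1.3, 2.39, 4.62, 0 and 1.3 TPM in OKS + FoxO6, from 0 to 3 reads. On the TPM scale the arms were close through day 3 and parted on the last 2 days, but the effective length RSEM used for C2 also varied, from 444 to 2581 bases. At day 5 OKS + FoxO6 had no C2 read against 10 in OKS + DsRed, or 5.06-fold lower when 0 is set at the limit of 3 reads in that library. This value takes no account of the counting error of the 10 reads and is not a lower limit. The day 7 ratio was 3.34 with an interval of 0.902 to 18.5.

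C4b (ENSMUSG00000073418, chr17:34728380-34743882) encodes C4, the other subunit of that convertase. In OKS + DsRed it was listed at 0, 0, 0.26, 5.22 and 4.24 TPM, and in OKS + FoxO6 at 0, 0, 0, 0.19 and 0.77 TPM. Reads thus appeared almost only at days 5 and 7, with 19 and 12.3 in OKS + DsRed against 1 and 3.67 in OKS + FoxO6. The ratio was 28.8 at day 5 (4.58 to 1198) and 2.79 at day 7 (0.76 to 10.7). C4b shares 34.57% of its 50-base words with its neighbour C4a (chr17:34809092-34823464), which had 0 to 10.7 reads in OKS + DsRed and 3 to 14 in OKS + FoxO6. When the 2 genes were summed the arm shift went from -2.66 to -0.18 on the log2 scale (adjusted p = 0.889, edgeR quasi-likelihood test), so a difference for the C4 genes as a pair was not shown.

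Cfb (ENSMUSG00000090231, chr17:34856374-34862518) encodes factor B, the protease of the alternative C3 convertase. It had no read at day 0 in either arm and was listed at 0, 1.6, 3.9, 40.7 and 25.1 TPM in OKS + DsRed. In OKS + FoxO6 it was listed at 0, 0, 4.17, 4.58 and 9.7 TPM. The arms were alike at day 3, with 6 and 5 reads, and parted at day 5, with 58 and 12. The ratio was 7.33 at day 5 (3.9 to 15) and 3.67 at day 7 (1.82 to 8.19). Most of the exonic sequence of Cfb, 79.5%, and 42.77% of that of C2 is also annotated to the overlapping gene Gm20547 (chr17:34856412-34882042), which had 0 reads in every library.

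C3 (ENSMUSG00000024164, chr17:57203970-57228136, minus strand) encodes the component at which all routes converge. It was at 0.92, 0, 1.35, 7.1 and 3.44 TPM in OKS + DsRed, with 3, 0, 5, 19 and 16 reads, and at 0.36, 0, 0.2, 3.26 and 2.26 TPM in OKS + FoxO6, with 2, 0, 1, 3 and 1 reads. Read counts were thus low in both arms and above 5 in the OKS + DsRed libraries of days 5 and 7 alone. As CPM, the ratio was 9.61 at day 5 (2.83 to 50.7) and 13.4 at day 7 (2.08 to 560.5), larger than the TPM values imply. The effective length that RSEM used for C3 differed with the isoforms it assigned, 3909 and 4780 bases in OKS + DsRed against 907 and 493 bases in OKS + FoxO6 at days 5 and 7, and so the 2 scales part where reads are few.

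Serping1 (ENSMUSG00000023224, chr2:84765387-84775444, minus strand) had the widest range of TPM among the 9 and encodes C1 inhibitor. In OKS + DsRed it was at 32.6, 25.5, 144, 393 and 259 TPM at days 0, 1, 3, 5 and 7, a peak 12-fold above day 0. In OKS + FoxO6 it was at 62.3, 40.6, 40.9, 129 and 190.35 TPM and was highest at the last day sampled. OKS + FoxO6 was the higher arm at days 0 and 1 and the lower arm at days 3, 5 and 7. The ratio of OKS + FoxO6 over OKS + DsRed was 1.6 at day 0 (1.09 to 2.4), 0.297 at day 3 (0.221 to 0.396), 0.314 at day 5 (0.265 to 0.371) and 0.79 at day 7 (0.676 to 0.921).

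Cd55 (ENSMUSG00000026399, chr1:130439027-130462744, minus strand) encodes decay-accelerating factor, which takes C3 convertases apart. It was at 82, 130.1, 113, 156 and 130 TPM in OKS + DsRed and at 121, 172, 174, 191 and 145 TPM in OKS + FoxO6. OKS + FoxO6 was higher on each of the 5 days, and with 138 to 490 reads per library Cd55 was the best measured member. The ratio of OKS + FoxO6 over OKS + DsRed lay between 1.24 at day 7 (1.06 to 1.45) and 1.46 at day 3 (1.24 to 1.73), with each of the 5 intervals above 1. Cd55 shares 8% of its 50-base words with the related gene Cd55b, which had 0 reads in every library.

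Cd59a (ENSMUSG00000032679, chr2:104095801-104115354, plus strand) encodes CD59, which stops the membrane attack complex from forming a pore. It was at 7.69, 5.67, 31.4, 54.6 and 58.5 TPM in OKS + DsRed and at 13, 16.4, 33.9, 71.4 and 95.2 TPM in OKS + FoxO6, with the lowest values at days 0 and 1 and the highest at day 7 in both arms. The day 0 library of OKS + DsRed held only 4 Cd59a reads, at an effective length of 805 bases against 1351 to 1631 in the other libraries. OKS + FoxO6 was the higher arm on all 5 days, but the intervals of days 3 and 5 spanned 1. The ratio was 3.12 at day 0 (1.07 to 12.4), 2.9 at day 1 (1.2 to 8.05) and 2.03 at day 7 (1.53 to 2.7). Cd59a shares 3.87% of its 50-base words with the related gene Cd59b, which had reads at days 5 and 7 only, at most 10.2 in a library.

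The arm comparison over the whole course asks whether FoxO6 beside OKS went with a different level of these genes. OKS + FoxO6 was set against OKS + DsRed with day as a block, with the edgeR quasi-likelihood test fitted to all 12139 genes that passed the filter on low counts and Benjamini-Hochberg adjustment over all of them. All 9 members passed the filter, but C2, C3 and C4b did so through OKS + DsRed libraries alone. They had at most 3, 3 and 3.67 reads in any OKS + FoxO6 library, against 12, 19 and 19 in OKS + DsRed. Their lower levels in OKS + FoxO6 are thus not independent of the filter, and the counts and median given next include them. Of the 9 members 3 were lower in OKS + FoxO6, against 6.92% of all genes tested, and 2 were higher, against 6.69%. The median log2 shift of the members was -1.41, against -0.02 over all genes tested.

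C3 shifted by -2.78 (SE 0.66, adjusted p = 0.022), Cfb by -2.04 (SE 0.49, adjusted p = 0.022) and Masp1 by -1.41 (SE 0.38, adjusted p = 0.0338) on the log2 scale. The C3 shift is to be read with its entry into the test through OKS + DsRed libraries alone. Cd55 shifted by 0.39 (SE 0.11, adjusted p = 0.0383) and Cd59a by 0.76 (SE 0.23, adjusted p = 0.0481). Cd55 had the smallest shift of the members and the smallest SE. The shifts of C4b (-2.66, SE 0.96, adjusted p = 0.102) and C2 (-1.87, SE 0.72, adjusted p = 0.116) did not pass the threshold. C1ra shifted by -0.82 (SE 0.27, adjusted p = 0.067) and Serping1 by -0.65 (SE 0.33, adjusted p = 0.231), and neither passed either. The 2 arms share no library in this comparison, but the p-values describe these 2 courses and not independent infections.

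With an offset for the effective length of each gene in each library none of the 9 members was called, although only the shift of C3 became much smaller, at -1.38 (adjusted p = 0.267). The shifts of Cfb (-1.77, adjusted p = 0.107), Masp1 (-1.40, adjusted p = 0.0513), Cd55 (0.40, adjusted p = 0.0619) and Cd59a (0.61, adjusted p = 0.127) stayed nearer to their values without the offset. With DESeq2, C3 (-2.62, adjusted p = 0.0597), Cd55 (adjusted p = 0.0882) and Cd59a (adjusted p = 0.103) were not called. Calls were also lost when single days were left out, which leaves fewer libraries. Without the libraries of day 5 the adjusted p was 0.284 for Cfb (shift -1.46) and 0.151 for Masp1 (-1.32), and without day 3 it was 0.121 for Masp1 (-1.02) and 0.0682 for C3 (-2.79). Masp1 was also not called without day 1 (-1.40, 0.0693) or day 7 (-1.44, 0.0566), although its shift stayed as large, and C3 could not be fitted without day 5 or day 7, nor Cfb without day 7, since too few reads remained for the filter. Cd55 lost its call without day 0 (0.0732), day 1 (0.084), day 3 (0.149) or day 5 (0.114), with shifts of 0.36 to 0.42, and Cd59a whichever day was left out (0.0654 to 0.149), with shifts of 0.63 to 0.97. When only days 3, 5 and 7 were fitted, a choice made after the data were seen, C1ra (-1.18, adjusted p = 0.0306) and Serping1 (-1.22, adjusted p = 0.0209) were also lower, and Cd55 (0.143) and Cd59a (0.145) were not called.

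**Figure D2:**
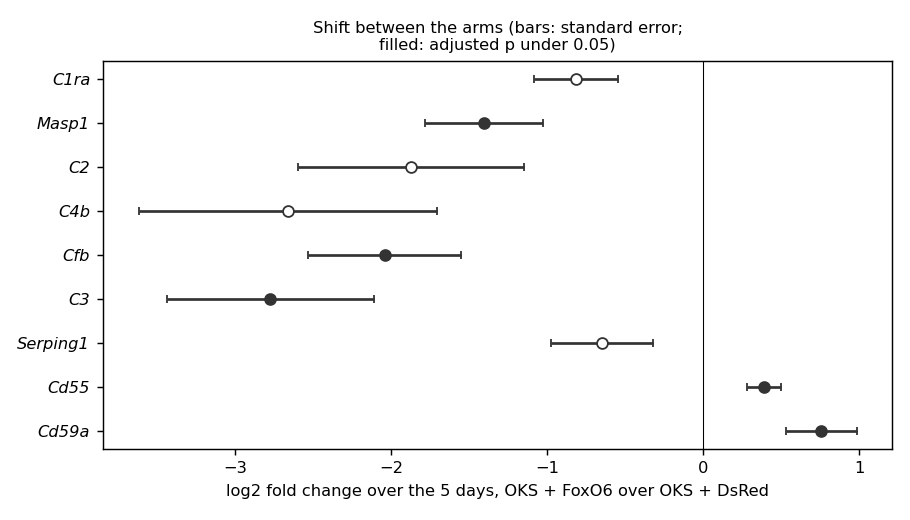
Log2 shift of OKS + FoxO6 against OKS + DsRed over the 5 days for the 9 complement genes, with points for the edgeR estimate and bars for 1 standard error and filled points for an adjusted p under 0.05. C3, Cfb and Masp1 lay below 0 at -2.78, -2.04 and -1.41, and Cd55 and Cd59a lay above 0 at 0.39 and 0.76.

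Within single days, a member was counted past 2-fold on the log2(TPM + 1) scale, which understates changes of low genes, and there is no test since each arm had 1 library. At day 0 no member was past 2-fold, against 10.4% higher and 6.32% lower among the 14837 genes whose mean TPM reached 1. At day 1 Cd59a was higher (7.95% of all genes) and Cfb lower (9.33%), the latter from 1 read against 0. At day 3 the proteases C1ra and Masp1 and their inhibitor Serping1 were lower, 3 of 9 members against 11.7% of all genes. At day 5 there were 6 lower members, C1ra, Masp1, C2, C4b, Cfb and Serping1, against 11.4% of all genes, and at day 7 there were 4, Masp1, C2, C4b and Cfb, against 16.3%. None was higher past 2-fold at days 3, 5 or 7, where 8.16%, 10.2% and 8.25% of all genes were. The median difference of the members was 0, 0.14, -0.33, -1.55 and -0.45 at days 0, 1, 3, 5 and 7, against 0.09, 0, 0, 0.003 and -0.14 over all these genes.

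**Figure D3:**
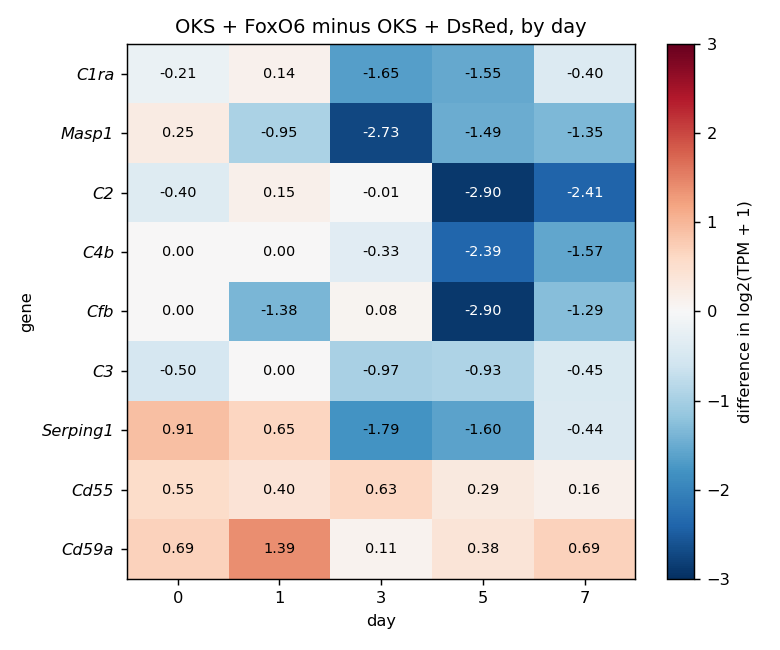
Difference in log2(TPM + 1), OKS + FoxO6 minus OKS + DsRed, of each complement gene at days 0, 1, 3, 5 and 7, from 1 library per arm and day and without error bars. Negative values gathered at day 5, where Cfb, C2 and C4b were at -2.9, -2.9 and -2.39, and Cd55 was above 0 on every day.

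Summed by role, the 6 components were at 33.2, 21.6, 66, 158 and 104 TPM in OKS + DsRed and at 30.4, 19.2, 22.1, 40.8 and 51.3 TPM in OKS + FoxO6 at days 0, 1, 3, 5 and 7. The arms were close at days 0 and 1 and widest apart at day 5. The convertase genes C2, C4b, Cfb and C3 alone summed to 59.4 TPM at day 5 in OKS + DsRed and to 8.03 TPM in OKS + FoxO6. The membrane regulators Cd55 and Cd59a summed to 89.7, 136, 144, 211 and 188 TPM in OKS + DsRed and to 134, 188, 208, 262 and 240.3 TPM in OKS + FoxO6. The ratio of membrane regulators to components was therefore lowest at day 5 in OKS + DsRed, at 1.33, and was 6.42 in OKS + FoxO6 on that day. It was higher in OKS + FoxO6 on all 5 days, day 0 included, with 4.41 against 2.7. These sums are descriptions, weighted by the most abundant genes of each role.

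**Figure D4:**
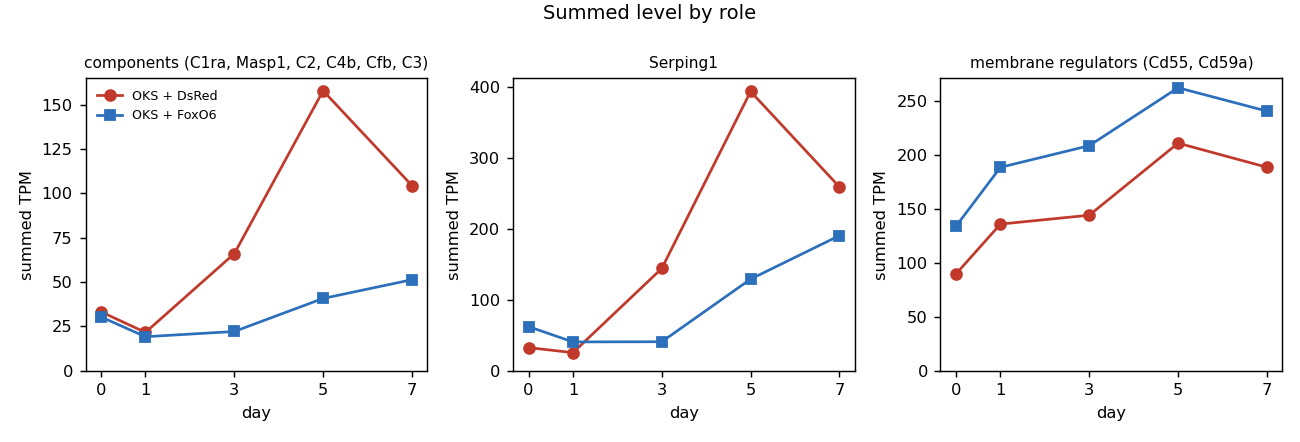
Summed TPM of the 6 components, of Serping1 and of the 2 membrane regulators (linear axis) against day, with 1 library per point, red for OKS + DsRed and blue for OKS + FoxO6, and no error bars. The component sum reached 158 TPM at day 5 in OKS + DsRed and 40.8 TPM in OKS + FoxO6, whereas the membrane regulators reached 211 and 262 TPM.

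The course over time was asked with day as a number and arm as a factor. Over both arms 4 of 9 members rose, against 10.9% of all genes tested, and none fell, against 10.6%. Cd59a rose by 0.48 log2 units per day (adjusted p = 9.32e-05), C4b by 0.88 (adjusted p = 0.00946), Cfb by 0.81 (adjusted p = 0.00359) and Serping1 by 0.41 (adjusted p = 0.00293), all by the edgeR quasi-likelihood test. The rise of C4b was not called without day 0 (0.0528), without day 1 (0.0567), with days 3, 5 and 7 set against days 0 and 1 (0.0649) or when it was summed with C4a (0.223), and C4b could not be fitted without day 5 or day 7. C4b passed the filter on low counts through the OKS + DsRed libraries of days 5 and 7 alone, so its rise is not independent of that filter.

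Within OKS + DsRed, Cd59a rose by 0.52 per day (adjusted p = 0.00324), Serping1 by 0.55 (adjusted p = 0.0133) and Cfb by 0.92 (adjusted p = 0.0241), 3 of 9 members against 5.82% of all genes, and no member fell, against 6.08%. Within OKS + FoxO6 only Cd59a was called, at 0.45 per day (adjusted p = 0.00485), 1 of 9 against 4.82%, and none fell, against 4.83%, while the slopes of Serping1 at 0.31 (adjusted p = 0.0635), Cfb at 0.67 (adjusted p = 0.112) and C1ra at 0.13 (adjusted p = 0.362) did not pass. In OKS + DsRed the call of Cfb was lost without day 0 (0.0826), day 1 (0.129) or day 3 (0.0628), and that of Serping1 without day 1 (0.082) or day 5 (0.0531).

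The slopes themselves were not shown to differ between the arms. By edgeR the arm by day term called 0 of 12139 genes and 0 of 9 members, with 1030 genes but no member at an unadjusted p under 0.05, and DESeq2 called 29 genes, none of them a member, but gave no adjusted p for C2, C3, C4b, Cfb and Masp1. The 9 terms ran from -0.35 to 0.11 log2 units per day, 8 of them negative, and the lowest adjusted p was 0.678. A straight line takes no account of a peak, and 7 of 9 members peaked at day 5 in OKS + DsRed, namely C1ra, Masp1, C4b, Cfb, C3, Serping1 and Cd55. In OKS + FoxO6, C1ra, C4b, Cfb, Serping1 and Cd59a were highest at day 7.

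Across the 10 libraries most of the components and Serping1 had similar courses. On the log2(TPM + 1) scale C1ra correlated with Masp1 at r = 0.913, with C3 at 0.904 and with Serping1 at 0.898, and C3 correlated with Serping1 at 0.916. Cd55 correlated with the other members at -0.322 to 0.535 and C2 at -0.165 to 0.633, whereas Cd59a correlated with Serping1 at 0.831, with Cfb at 0.766 and with C3 at 0.739. The 10 points share the 2 courses and the day, so these are descriptions without a test. The genes most like C1ra were Sp100 (r = 0.963), Msh3 (0.953) and Gm12250 (0.951), and those most like C3 were Epsti1 (0.949), Unc119 (0.946) and Grb7 (0.945). Those most like Serping1 were Tmem130 (0.978), Ly6c2 (0.978) and Ube2l6 (0.976), and those most like Cfb were H2-T10 (0.981), Pim2 (0.971) and Dnajc21 (0.969). For Masp1 they were Rab27a (0.964), Sulf1 (0.958) and Hdac2 (0.929), for C2 Zfp784 (0.919), Orc5 (0.908) and Efs (0.883), and for C4b Hrh2 (0.985), Slc15a1 (0.975) and Unc79 (0.971). C4b and C3 had more than 3 reads in only 3 libraries and C2 in 4, so their correlations rest on few libraries. The genes most like C4b were also low, at mean TPM of 1.24, 1.98 and 2.12. For Cd55 they were E130308A19Rik (0.953), Dazap2 (0.95) and Polb (0.95), and for Cd59a 2310043M15Rik (0.983), Ssbp4 (0.982) and Il34 (0.978).

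Most of the rest of the cascade gave few or no reads at this depth. Of 46 other complement genes, 12 had no read and 31 had at most 3 reads in every library, among them all 7 genes of the terminal pathway and 9 of 10 recognition molecules. Only 8 passed the filter on low counts, of which 2 were higher in OKS + FoxO6, against 6.69% of all genes tested, and 0 were lower, against 6.92%. Among the higher ones, Clu, encoding clusterin, a regulator in the fluid phase, was at 16.8, 12.5, 17.8, 14.1 and 8.23 TPM in OKS + DsRed and at 51.4, 31.3, 21.7, 16.4 and 12.8 TPM in OKS + FoxO6, higher on all 5 days (log2 shift 1.15, SE 0.24, adjusted p = 0.0102). The gap in Clu was widest at day 0, and it was not called when days 3, 5 and 7 were fitted alone (0.80, adjusted p = 0.173) or with the effective length offset (0.84, adjusted p = 0.0829).

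C1s1, the partner protease of C1ra, is named here after its values were seen. It was at 5.99, 11.6, 29.6, 52.2 and 41.4 TPM in OKS + DsRed and at 21.4, 9.83, 6.85, 12.2 and 12.5 TPM in OKS + FoxO6. From a higher level at day 0 in OKS + FoxO6 it went to a lower one at days 3, 5 and 7, and its shift over the 5 days was not called (-1.23, SE 0.50, adjusted p = 0.137).

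Of 28 cytokines, receptors and factors known to induce complement genes, 22 were tested, of which 2 were lower, against 6.92% of all genes tested, and 3 higher, against 6.69%, in OKS + FoxO6. The cytokines themselves were near the limit of detection, with Il1a and Il1b at 0 reads and Ifng, Tnf and Il6 at no more than 3 reads in any library. Among the lower ones, Irf1, an interferon-induced factor, was at 155 TPM in OKS + DsRed and 48.4 TPM in OKS + FoxO6 at day 5 (-1.79, SE 0.29, adjusted p = 0.00262). Among the higher ones, Socs3, a feedback inhibitor of STAT3 signalling, shifted by 0.90 (SE 0.12, adjusted p = 0.000714), Cebpd, a C/EBP factor of the acute phase, by 0.80 (SE 0.16, adjusted p = 0.0085) and the TNF receptor gene Tnfrsf1a by 0.46 (SE 0.12, adjusted p = 0.0298), the last not called without day 1 (0.0517), day 3 (0.0899) or day 5 (0.131). Whether any of these factors bears on the complement genes was not tested.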

How the data were processed

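The authors aligned reads to GENCODE M13 transcripts with RSEM and bowtie2, on mm10 per the labels. The deposited library files hold expected counts, TPM, FPKM and effective lengths for 50600 genes each, and the deposited series table holds gene counts and symbols. The library kit is named differently in the methods and the labels, and strandedness is not given in the sources used here. Expected counts were rounded and tested with edgeR 4.0.16 (R 4.3.3, TMM, filterByExpr, quasi-likelihood test, Benjamini-Hochberg adjustment over 12139 genes, threshold 0.05). The arm comparison had day as a factor, and the slopes had day as a number. Single days were compared on log2(TPM + 1) without a test, and CPM ratios carry exact 95% intervals of the 2 counts. Motifs and partners were read from RefSeq windows and GENCODE M21. The genes named are the 9 members, their near-identical or overlapping partners, those of 2 lists (other complement genes and inducers) past the threshold of the arm comparison, and the 3 genes best correlated with each member, and some genes of the lists are not reported here. The members and lists were chosen with earlier results of these data known. The fits were tested on simulated data. Of 200 genes changed 4-fold, 200 were recovered for the arm comparison with 9 false calls, among 12139 genes. For the arm by day term 116 were recovered with 0 false calls. The changed genes were drawn from the better measured ones, and C2, C3, C4b and Cfb had too few reads to be among them. The simulated spread between libraries was below the fitted common dispersion, 0.0362 for the arm comparison and 0.0621 for the arm by day term. The recovered shares therefore do not apply to C2, C3, C4b and Cfb. DESeq2 1.42.0 and the other alternatives are given in the closing section.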

Additional observations from a re-analysis of the deposited data

Results flagged for a closer look

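Serping1 changed the order of the arms within the course. The CPM ratio of OKS + FoxO6 over OKS + DsRed was 1.599 at day 0, with a counting interval above 1, and 0.297, 0.314 and 0.79 at days 3, 5 and 7, with intervals below 1. It was 1.456 at day 1, where the interval spanned 1 (0.924 to 2.33). The intervals compare single libraries, and the arm by day term over all 10 libraries did not pass (adjusted p = 0.678, edgeR quasi-likelihood test), nor did it when days 3, 5 and 7 were set against days 0 and 1 (adjusted p = 0.993). No cause was tested.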

How the results depend on the processing

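Read counts limit the rarer members: C2, C3 and C4b had at most 12, 19 and 19 reads in a library, and each result has 1 library per arm and day. No member's arm shift, shared trend or OKS + DsRed slope changed sign under any alternative run. The 3 members lower in OKS + FoxO6 became 5 without the filter on low counts, 5 with days 3, 5 and 7 only, 0 with the effective length offset, 2 with DESeq2 (without C3), and 0 to 3 when single days were left out. The 2 higher members became 1 with RLE size factors, 0 with DESeq2, 0 with the offset, 1 with partners summed, 0 with days 3, 5 and 7 only, and 0 to 1 when single days were left out. Without the day term, which stands in for a replicate block, the counts were 0 lower and 0 higher. The 4 rising members became 2 to 5 when single days were left out, 2 being without day 7, and the 3 rising in OKS + DsRed became 1 to 2, 1 being without day 1. In all these counts only 6 members could be tested without day 5 and only 5 without day 7, C4b being absent from both and Cfb from the latter. The 1 rising in OKS + FoxO6 became 3 with DESeq2, 2 without the filter and 0 with days 3, 5 and 7 against days 0 and 1. For single days, a pseudocount of 0.1 gave 1 lower member on day 0, 2 on day 1 and 5 on day 3, whereas CPM gave 1 higher at day 0, 0 lower at day 1, 5 lower at day 3 and 1 higher at day 7. For single genes, 62 of the alternative values of the arm comparison stayed on the same side of the threshold, 32 lost a call and 6 gained one. C1ra (adjusted p = 0.000984) and Serping1 (adjusted p = 0.00349) were called without the filter, and C2 summed with Cfb and Gm20547 was at -1.93 (adjusted p = 0.00976, all edgeR). That sum is counted above as a gained call of C2. It held 43 C2 and 136 Cfb reads over all libraries, and Cfb was called by itself, so it is not a call of C2 alone. As CPM, the differences of C2 at day 1 and Cfb at day 3, both under 2-fold, changed sign to -0.67 and -0.48. Over all genes, the 1652 calls of the arm comparison became 698 without day 5, 762 without day 3 and 161 without the day term, the 2610 of the shared trend 1596 without day 5, the 1445 of the OKS + DsRed slope 507 to 681 in 3 settings, the 1171 of the OKS + FoxO6 slope 250 to 639 in 5 settings, and the 0 of the arm by day term 29 with DESeq2, 6 without the filter and 1 without day 1.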
